A study of Mus musculus with 40 samples.

Results

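The 9 genes described here are mouse orthologs of genes whose mutations cause amyotrophic lateral sclerosis (ALS), the disease in which motor neurons of the brain and spinal cord die. They are *Sod1*, *Tardbp*, *C9orf72*, *Tbk1*, *Optn*, *Sqstm1*, *Vcp*, *Ubqln2* and *Chmp2b*. They were chosen by name for their place in the disease, with earlier results of these data known, and each matched 1 Ensembl identifier, so that they make up 9 of the 55487 genes in the count table. The data cover 40 libraries of about 200 sorted cells each, 20 from each of the cell types ES-astrocytes and ES-motor neurons. Both cell types were differentiated from mouse embryonic stem cells of B6.Cg-Tg(Hlxb9-GFP)1Tmj/J origin, a non-commercial line in which the Hb9 promoter drives enhanced green fluorescent protein and so marks motor neurons for sorting. All ES-astrocytes first received forskolin for 5 days. They then received 1 of 5 treatments for 24 h before co-culture: control medium, IL-1α and TNF-α, C1Q and C5, IL-1β and IL-6, or TGF-β2. ES-motor neurons were sorted, plated onto the ES-astrocytes and separated from them again by fluorescence. The factors were given to ES-astrocytes, and the treatment of an ES-motor neuron library is that of its co-culture. Medium was kept at plating, and the paper names a small, likely negligible risk that leftover factors met the ES-motor neurons. It gives 24 h of co-culture before fixation and no separate time for the sorted libraries. Each of the 10 groups has 4 biological replicates, lettered A to D, and polyadenylated RNA was copied into cDNA, fragmented with the transposase Tn5 and sequenced.

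ALS genes fall into a few cellular pathways rather than into one. Several encode parts of the machinery that recognises ubiquitinated proteins and damaged organelles and delivers them to autophagosomes, others handle RNA, and *SOD1* encodes an abundant antioxidant enzyme whose mutant forms misfold. Most of these genes are expressed in many tissues, and in ALS models mutant glia as well as mutant neurons have been studied, which is the reason to look at both cell types. No mutation of these genes is described for the line used here, so the values are read as those of wild-type transcripts.

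The depth of the libraries was uneven. Summed over genes, ES-astrocyte totals ran from 1510823 to 16054290 counts (median 4670241.5) and ES-motor neuron totals from 6557 to 19717324 (median 1213482). Of the ES-motor neuron libraries, 9 held less than 20% of the median over all 40 libraries (2459460.5) and are called shallow here. They are control C, all 4 of IL-1α and TNF-α, C1Q and C5 A (6557 counts), IL-1β and IL-6 B and D, and TGF-β2 A. No ES-astrocyte library was shallow. Levels are given as CPM, edgeR's counts divided by TMM-normalized library sizes and set to a common scale. A count of 0 allows up to 3 counts, which at the unscaled library totals corresponds to 0.187 to 1.99 CPM in ES-astrocytes and, for ES-motor neurons, to 0.152 to 458 CPM; all limits for 0 counts below are of this kind. These limits cover counting error only, since no molecular identifiers are named. Plate index 1 holds the control and the IL-1α and TNF-α libraries and plate index 2 those of the other 3 stimuli, so that for those 3 stimuli plate and treatment cannot be told apart. The second index primer was S337 or S339 in ES-astrocytes and S338 or S340 in ES-motor neurons and cannot be told apart from the cell type.

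A single ES-astrocyte library stood apart from the others. The share of counts given for it here was looked at only after seeing the data. In ES-astrocyte control A the 100 most counted genes other than *Sod1* held 18.7% of the counts, against 24.3% to 39.8% in the other 19 ES-astrocyte libraries, and mitochondrial genes held 1.12% of the counts against 2.62% to 3.95%. Results that moved with this library are given with and without it in several places below; leaving it out of the comparison over all treatments was chosen after seeing the data.

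Markers of the labelled cell types were checked first. In ES-motor neurons *Mnx1*, the gene of Hb9 itself, ranged from 319 to 4000.0 CPM (median 661) in 20 of 20 libraries and the summed level of 8 motor neuron markers had a median of 987 CPM, against 39.0 CPM in ES-astrocytes. *Mnx1* makes up most of that sum. The cells were sorted on a reporter driven by its promoter, so its level is no independent check of the label. Over the 5 treatments 7 of the 8 markers, *Mnx1* among them, were called higher in ES-motor neurons by edgeR. *Lhx3* was not, with a median of 5.98 CPM in ES-motor neurons against 7.71 in ES-astrocytes. In ES-astrocytes *Fabp7*, a lipid-binding protein of radial glia and immature astrocytes, ranged from 558 to 2348 CPM (median 1330) and was the most abundant of 10 astrocyte markers, whose sum had a median of 2309 CPM against 810.5 CPM in ES-motor neurons. The defining genes of mature astrocytes *Gfap*, *Aqp4* and *Aldh1l1* had 0 counts in all 20 ES-astrocyte libraries. Of the 7 astrocyte markers tested over the 5 treatments, 5 were lower in ES-motor neurons by the edgeR quasi-likelihood test, where 18.7% of all genes were called in either direction: *Fabp7* (log2 fold change -5.79), *Cd44* (-6.08), *Slc1a3* (-6.80), *Slc1a2* (-2.90) and *Fgfr3* (-5.07). *Sox9* was the 1 marker called higher in ES-motor neurons over the 5 treatments (log2 fold change 1.75, standard error SE 0.31, adjusted p = 2.99e-05 by the edgeR quasi-likelihood test). ES-astrocyte libraries also held transcripts of genes that mark other cells. The neuronal gene *Stmn2* had a median of 950 CPM in ES-astrocytes against 2924 in ES-motor neurons, the proliferation gene *Top2a* 419 against 1.91, the fibroblast gene *Dcn* 138 against 0 and the interneuron gene *Gad2* 18.4 against 0. Summed medians in ES-astrocytes and ES-motor neurons were 2508 and 7919 CPM for 7 neuronal markers, 540 and 14.2 for 6 progenitor markers, 199.7 and 0 for 6 fibroblast markers, and 33.1 and 0 for 6 interneuron markers. They were 1.96 and 5.75 for 5 oligodendrocyte markers. For 6 microglial markers they were 0.481 and 3.38, and for 3 pluripotency markers 0.162 and 0. *Csf1r* and *Nanog* were the most abundant genes of this last pair of lists, and the defining markers *Aif1*, *P2ry12*, *C1qa*, *Pou5f1* and *Zfp42* had 0 counts in all 40 libraries. These marker levels move with the cell type. Which cells the transcripts came from was not tested, nor was their part in the differences below. In such bulk samples, fewer cells of a type and less RNA per cell cannot be told apart.

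The levels of the 9 genes spanned more than 3 orders of magnitude. Scaled to the summed length of the gene's exons, mean levels in ES-astrocytes ran from *Sod1* at 2097 CPM per kb through *Tardbp* at 31.9, *Vcp* at 25.3, *Sqstm1* at 14.3, *C9orf72* at 8.55, *Ubqln2* at 7.73, *Chmp2b* at 7.24 and *Tbk1* at 5.08 to *Optn* at 0.531. In ES-motor neurons the order was the same except that *Vcp* (25.2 CPM per kb) came before *Tardbp* (25.0), with *Sod1* at 1294 and *Optn* at 0.679. When the 10 group means of each gene are put in order, neighbours lie close by construction: of the 81 neighbouring pairs, 0 differed by more than the larger of their SDs and 0 had ranges that did not overlap. This says nothing of groups farther apart in the order.

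*Sod1* (ENSMUSG00000022982, GRCm38 chromosome 16 from 90220754 to 90226329) encodes the copper-zinc enzyme that converts superoxide to hydrogen peroxide, and its mutations were the earliest known cause of familial ALS. In control ES-astrocytes its level was 501, 10838, 8223 and 10593 CPM in replicates A to D, and in control ES-motor neurons 2969, 3652, 2017 and 8372 CPM. Apart from replicate A, the library that stands apart, control ES-astrocytes were at or above 8223 CPM and only ES-motor neuron D reached into their range. With IL-1α and TNF-α the levels were 9844, 4148, 10486 and 11281 CPM in ES-astrocytes and for ES-motor neurons 2106, 3066, 9559 and 4862 CPM. With C1Q and C5 they were 13949, 4122, 11498 and 2489 CPM in ES-astrocytes and for ES-motor neurons 1751, 9084, 7832 and 8173 CPM. In both of these treatments the cell types overlapped, with ES-astrocyte B low in each and ES-astrocyte D low with C1Q and C5. With IL-1β and IL-6 the levels were 14007, 6053, 7704 and 11302 CPM in ES-astrocytes and for ES-motor neurons 1994, 4792, 4771 and 4228 CPM. With TGF-β2 they were 4344, 7682, 6060.3 and 11347 CPM in ES-astrocytes and for ES-motor neurons 3502, 4427, 7825 and 7759 CPM. The cell types did not overlap with IL-1β and IL-6 and overlapped in the other 4 treatments. How many of all genes show such a gap in a treatment was not computed.

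**Figure D1:**
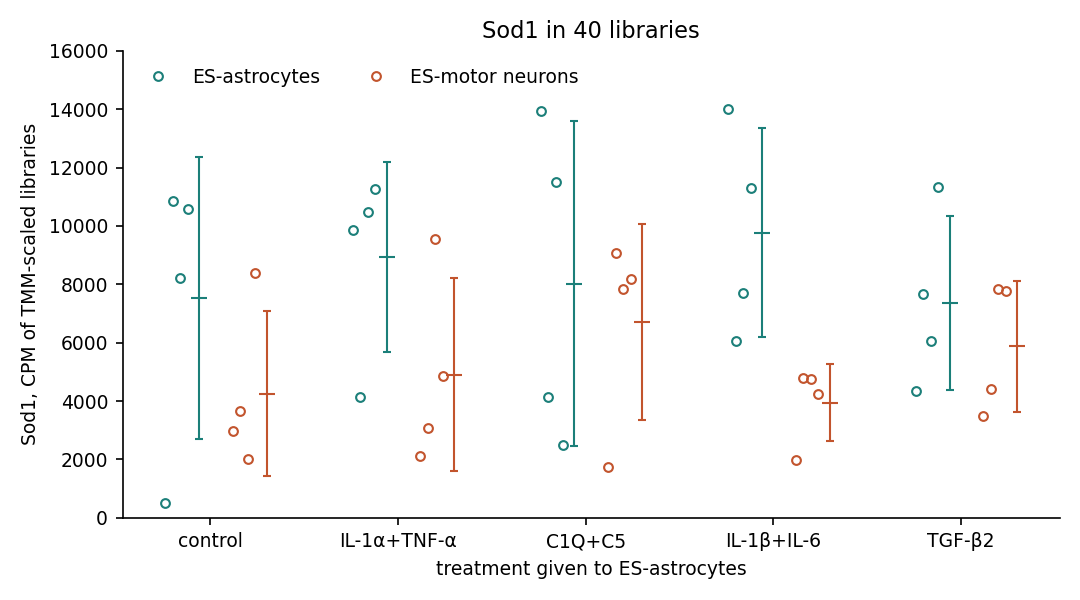
Level of *Sod1* (CPM of TMM-scaled libraries) in 40 libraries by the treatment of the culture; open circles are libraries, horizontal marks are group means and bars the SD over 4 libraries. The ES-motor neuron mean lies below the ES-astrocyte mean in 5 of 5 treatments, and control ES-astrocyte A lies at 501 CPM. The share of all genes with this order was not computed.

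The group means of *Sod1* ran from 9766 ± 3577 CPM (SD, n = 4) in ES-astrocytes with IL-1β and IL-6 to 3946 ± 1327 CPM in ES-motor neurons of the same treatment. The ES-motor neuron mean was below that of ES-astrocytes in 5 of 5 treatments, and 18 of 20 ES-motor neuron libraries were below the ES-astrocyte median of 9033 CPM (ES-motor neuron median 4599 CPM). The share of all genes with such counts was not computed, so they are not read as particular to *Sod1*. Estimated within treatments from all 40 libraries, *Sod1* was lower in ES-motor neurons, at a log2 fold change of -0.71 with a standard error (SE) of 0.26 ( adjusted p = 0.0437 by the edgeR quasi-likelihood test with Benjamini-Hochberg adjustment over 13227 genes). It was the only member called in that comparison, 1 of 9 tested, where the share called among all genes was 18.7% (2472 of 13227, of which 721 were higher and 1751 lower in ES-motor neurons). The balance of these calls turned, to 2567 higher and 1224 lower, in the alternative with limma-voom and sample quality weights (called limma-voom below), in which the tool and the weights changed together. By rank, 18.1% of all genes tested had a smaller p than *Sod1*.

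The call of *Sod1* lay near the threshold and depended on the libraries and the setting. Without the 9 shallow libraries the log2 fold change was -0.40 (adjusted p = 0.533 by edgeR), and limma-voom gave -0.42 (adjusted p = 0.215). It was also not called without the replicates of any 1 letter (A -0.47, B -0.77, C -0.81, D -0.78), without a filter on low counts (-0.72), with a stricter filter (-0.63), within plate index 1 alone (-0.75) or plate index 2 alone (-0.61), or with a minimum absolute log2 fold change of 1. It was called by DESeq2 (-0.73), with RLE normalization (-0.73), in a fit with 1 mean for each of the 10 groups (-0.72) and without the single library ES-astrocyte control A (-0.76, adjusted p = 0.00835 by edgeR). Over these alternatives the adjusted p ran from 0.00835 to 0.533. In the 4 against 4 control libraries alone, the log2 fold change of *Sod1* was -0.79 (SE 0.79, adjusted p = 0.845 by edgeR) and without ES-astrocyte control A it was -1.18 (adjusted p = 0.147 by edgeR, range over the alternatives 0.147 to 1.000).

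The level of *Sod1* moved with how the counts of a library were spread over genes, a relation looked at after seeing the data and prompted by ES-astrocyte control A, which is low in both values. Most abundant genes show it, so it is not particular to *Sod1*. With each gene left out of its own share, r was above 0 for 83 of the 99 other genes among the 100 most counted in ES-astrocytes (median 0.785) and at least that of *Sod1* for 18. In ES-motor neurons r was above 0 for 86 of 99 (median 0.657) and at least that of *Sod1* for 65. The values for *Sod1* describe this pattern. Their p-values are against an r of 0, which most of these genes exceed, so no conclusion is drawn from them. Control A is itself among the ES-astrocyte libraries tested over both plates and within plate index 1. In ES-astrocytes the share of counts on the 100 most counted genes other than *Sod1* ranged from 18.7% to 39.8% (median 33.3%), and over the 20 libraries it was correlated with *Sod1* (Pearson's r = 0.913, permutation p = 1e-05, the smallest that 100000 permutations can give; Spearman's rho = 0.850, permutation p = 3.0e-05). The Benjamini-Hochberg values over 6 relations were 6.0e-05 and 1.5e-04. Without the 2 libraries farthest from the median share, control A and C1Q and C5 D, r was 0.859 (n = 18). Within plate index 2 (n = 12) r was 0.893 (permutation p = 2.20e-04) and rho 0.923 (permutation p = 5.00e-05), and without 2 libraries r was 0.834. Within plate index 1 (n = 8) r was 0.954 (exact permutation p = 0.00561) and rho 0.714 (exact permutation p = 0.0576), and without control A and IL-1α and TNF-α B r was 0.291, so that there the relation rests on those 2 libraries. In ES-motor neurons the share ranged from 26.6% to 44.8% (median 39.5%), with r = 0.530 (permutation p = 0.0143, adjusted 0.0215) and rho = 0.426 (permutation p = 0.0623, adjusted 0.0934) over 20 libraries. Within plate index 1 (n = 8) r was 0.510 (exact permutation p = 0.174) and rho 0.357 (exact permutation p = 0.389) there, and within plate index 2 (n = 12) r was 0.513 (permutation p = 0.0928) and rho 0.217 (permutation p = 0.502), so that r was of similar size within plates and rho was smaller. Without the 2 libraries farthest from the median share r was 0.382 over both plates, 0.315 within plate index 1 and -0.358, with the sign turned, within plate index 2. ES-motor neurons thus had the higher shares and the lower *Sod1* levels, while within ES-astrocytes higher shares went with higher *Sod1*. The part of this measure in the difference between the cell types was not tested.

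**Figure D2:**
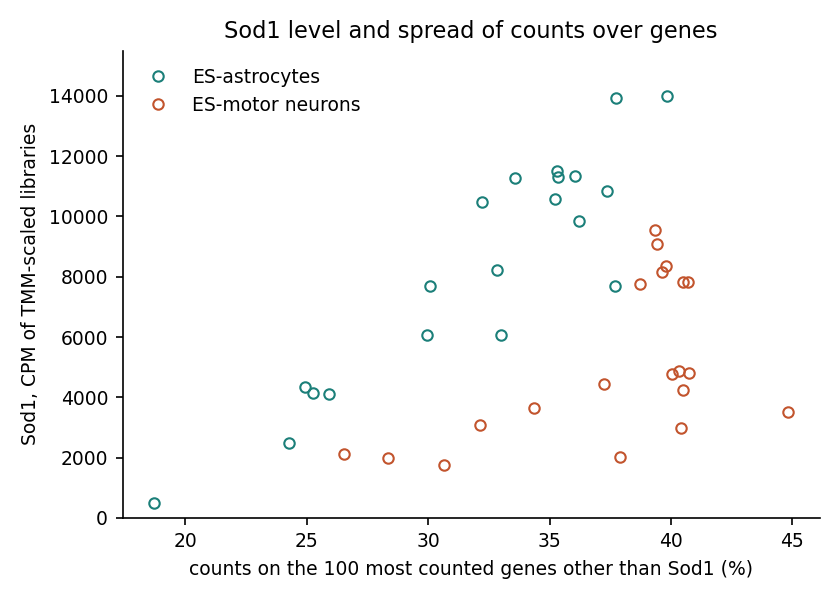
Level of *Sod1* (CPM of TMM-scaled libraries) against the percentage of counts on the 100 most counted genes other than *Sod1*; each circle is 1 of 40 libraries. In ES-astrocytes both rise together (r = 0.913, n = 20), from control A at 18.7% and 501 CPM upwards; ES-motor neurons lie mostly to the right and lower.

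The promoter of *Sod1* is shown because it was the only member that the edgeR test called between the cell types. The stretch is chromosome 16 from 90220512 to 90220811 on the plus strand, 300 bases around the start of the gene from RefSeq on GRCm38.p6, printed 5′ to 3′. Capitals mark matches, on either strand, to the TATA box TATAAA, the CAAT box CCAAT, the GC box GGGCGG and to TGACNNNGC, the core of the element that binds NRF2, where neighbouring GGGCGG matches overlap.
Sod1: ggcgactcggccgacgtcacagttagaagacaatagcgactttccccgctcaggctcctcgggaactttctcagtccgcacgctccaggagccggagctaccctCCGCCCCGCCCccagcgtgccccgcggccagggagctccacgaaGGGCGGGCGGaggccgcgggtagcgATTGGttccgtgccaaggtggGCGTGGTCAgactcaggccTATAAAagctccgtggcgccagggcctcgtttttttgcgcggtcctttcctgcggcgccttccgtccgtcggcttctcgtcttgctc
The TATAAA match is on the printed strand at bases 214 to 219, GGGCGG occurs on the printed strand and on the other, and the CCAAT and TGACNNNGC matches are on the other strand. Of 32851 promoters of the same length in the table, 13.6% hold TATAAA, 37.4% CCAAT, 35.7% GGGCGG and 12.4% TGACNNNGC. Of the 9 members, 8 matched an entry and *Ubqln2* did not. TATAAA was found in 3 (*Sod1*, *Vcp* and *Sqstm1*), GGGCGG in 6 (*Sod1*, *Tardbp*, *C9orf72*, *Optn*, *Tbk1* and *Sqstm1*), and CCAAT and TGACNNNGC each in 2 (*Sod1* and *Vcp*). These matches describe letters in the window and not bound sites.

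*Tardbp* (ENSMUSG00000041459, chromosome 4 from 148612382 to 148627019) encodes TDP-43, the RNA-binding protein found in the inclusions of most ALS patients. It was counted in 40 of 40 libraries, at 70.0 to 429 CPM in ES-astrocytes (median 235) and for ES-motor neurons 64.9 to 314 CPM (median 207). Its ES-motor neuron mean was the lower in 5 of 5 treatments and 17 of 20 ES-motor neuron libraries were below the ES-astrocyte median, but the ranges overlapped in each treatment. For these counts too, the share of all genes was not computed. The log2 fold change over the 5 treatments was -0.33 (SE 0.18, adjusted p = 0.213 by edgeR) and did not pass the test. In the control libraries it was -0.32 (SE 0.46, adjusted p = 0.911 by edgeR). Its lowest ES-astrocyte value was that of control A, without which the control difference was -0.62 (adjusted p = 0.372 by edgeR, range over the alternatives 0.372 to 1.000). *Tardbp* overlaps exons of *Masp2* on the opposite strand, which had 1142 counts in all against 41816, and the sources used here do not state whether the counting used the strand. Exons also overlap on opposite strands for *Vcp* and *1700022I11Rik* (2578 counts against 23934), *C9orf72* and *Gm12367* (19 against 7691), and *Optn* and *4930551O13Rik* (17 against 432).

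*C9orf72* (ENSMUSG00000028300, chromosome 4 from 35191285 to 35226175) is the gene in which an intronic repeat expansion is the most frequent known genetic cause of ALS, and its protein acts with SMCR8 and WDR41 at endosomes and lysosomes. In control libraries it had 24.1, 36.0, 16.8 and 33.2 CPM in ES-astrocytes and for ES-motor neurons 64.2, 44.3, 34.6 and 37.2 CPM. The ES-motor neuron values were mostly the higher and the groups overlapped at 34.6 to 36.0 CPM. *C9orf72* had the smallest p of the members in the control comparison, with a log2 fold change of 0.72 (SE 0.56, adjusted p = 0.766 by edgeR). Over the 5 treatments the difference was 0.07 (SE 0.43, adjusted p = 0.947 by edgeR), with the ES-motor neuron mean higher in 2 treatments and lower in 3. Its 2 partners in the complex, *Smcr8* (1.02, SE 0.70, adjusted p = 0.380 by edgeR) and *Wdr41* (0.28, SE 0.58, adjusted p = 0.825), did not pass the test either: 0 of 2 were called by edgeR, with 0 at an unadjusted p under 0.05, and 0 by DESeq2 and by limma-voom, where edgeR called 18.7% of all genes.

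*Tbk1*, *Optn* and *Sqstm1* act together in selective autophagy, where the kinase TBK1 phosphorylates the receptors optineurin and p62 (the product of *Sqstm1*) that link ubiquitinated cargo to autophagosomes. *Tbk1* (ENSMUSG00000020115, chromosome 10 from 121546455 to 121586787) ranged from 1.17 to 68.5 CPM in ES-astrocytes (median 20.0) and for ES-motor neurons from 0 to 67.4 CPM (median 9.59), with 4 ES-motor neuron libraries at 0. The highest value of *Tbk1* in ES-motor neurons is 1 count in the library of 6557 counts. *Sqstm1* (ENSMUSG00000015837, chromosome 11 from 50199366 to 50210827) ranged from 0 to 94.2 CPM (median 47.7) in ES-astrocytes and from 0 to 106 CPM (median 39.2) in ES-motor neurons. Neither passed the test over the 5 treatments, with log2 fold changes of -0.54 for *Tbk1* (SE 0.49, adjusted p = 0.532 by edgeR) and -0.12 for *Sqstm1* (SE 0.33, adjusted p = 0.879). In the control libraries the differences were 0.07 for *Tbk1* (SE 1.04, adjusted p = 0.997 by edgeR) and -0.52 for *Sqstm1* (SE 0.73, adjusted p = 0.910). The sign for *Tbk1* turned to -0.32 without ES-astrocyte control A, and *Sqstm1* moved to -0.10 without it. Exons of *Sqstm1* overlap those of *Mrnip* on the opposite strand, which had 5387 counts against 9543.

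*Optn* (ENSMUSG00000026672, chromosome 2 from 5020642 to 5064051) was close to the detection limit. It had 432 counts in all 40 libraries together and 0 in 22 of them, where a count of 0 allows up to 0.224 to 458 CPM. In control libraries it had 12.8, 0, 4.73 and 0 CPM in ES-astrocytes (120, 0, 13 and 0 counts) and 0, 0.0510, 0 and 0 CPM in ES-motor neurons, that is 1 count in 4 libraries. It did not pass the filter on low counts in the control comparison, and its means of 4.38 ± 6.03 and 0.0128 ± 0.0255 CPM (SD, n = 4) gave p = 0.429 in an exact two-sided permutation test, in which 4 against 4 libraries cannot give a p under 0.0286. The ES-astrocyte mean rests mostly on control A, the library that stands apart. Over the 5 treatments its log2 fold change was -0.34 (SE 1.31, adjusted p = 0.912 by edgeR), and the sign turned with the tool, to 0.12 by DESeq2 and 2.03 by limma-voom, which called it (adjusted p = 0.0203 by limma-voom, range over the alternatives 0.0203 to 0.979).

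*Vcp* and *Ubqln2* act in the handling of ubiquitinated proteins. *Vcp* (ENSMUSG00000028452, chromosome 4 from 42979963 to 43000507) encodes an ATPase that extracts them from membranes and complexes, and it ranged from 72.4 to 186 CPM in ES-astrocytes (median 125) and for ES-motor neurons 0 to 214 CPM (median 119). Its only 0 was in ES-motor neuron C1Q and C5 A, the library of 6557 counts. The cell types did not differ by the test, with 0.05 over the 5 treatments (SE 0.17, adjusted p = 0.910 by edgeR) and 0.11 in the control libraries (SE 0.38, adjusted p = 0.980). *Ubqln2* (ENSMUSG00000050148, chromosome X from 153498227 to 153501570) encodes ubiquilin 2, a shuttle between ubiquitinated proteins and the proteasome, and ranged from 3.003 to 176 CPM in ES-astrocytes (median 17.7) and for ES-motor neurons from 0 to 60.6 CPM (median 20.3). Its log2 fold change was 0.07 over the 5 treatments (SE 0.39, adjusted p = 0.939 by edgeR) and 0.27 in the control libraries (SE 0.73, adjusted p = 0.966), and its sign over the treatments turned with DESeq2 (-0.03) and RLE normalization (-0.02). *Chmp2b* (ENSMUSG00000004843, chromosome 16 from 65539128 to 65562726) encodes a subunit of ESCRT-III, the complex that closes vesicles budding into endosomes and seals autophagosomes. It ranged from 0 to 43.3 CPM in ES-astrocytes (median 12.7) and for ES-motor neurons from 0 to 41.3 CPM (median 6.04), with 11 of 40 libraries at 0. Its differences were -0.30 over the 5 treatments (SE 0.69, adjusted p = 0.850 by edgeR) and 0.22 in the control libraries (SE 1.66, adjusted p = 0.989).

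**Figure D3:**
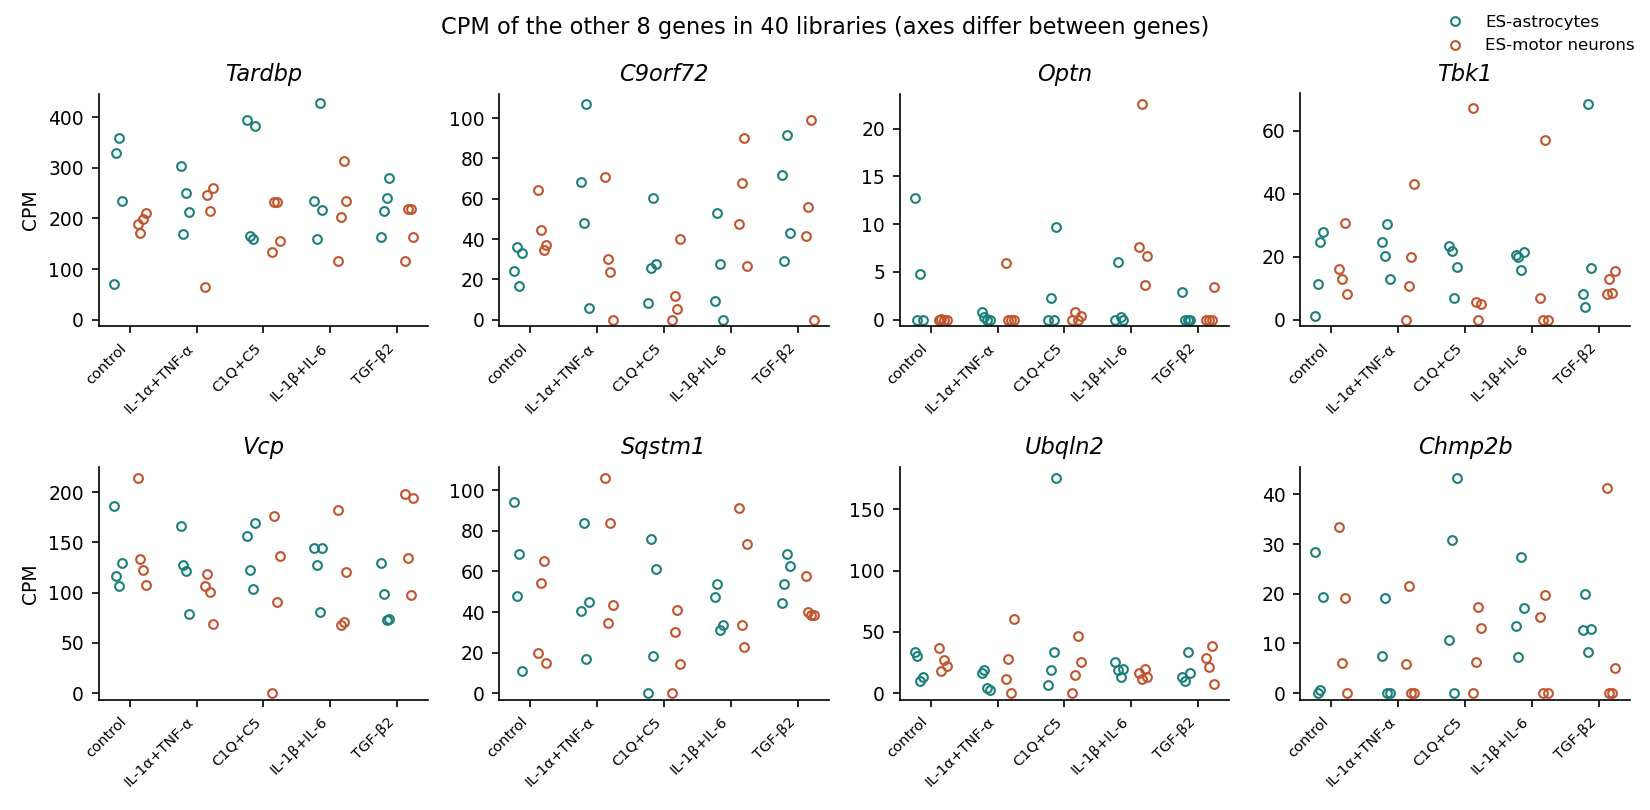
Levels (CPM of TMM-scaled libraries) of the 8 genes other than *Sod1* in 40 libraries by treatment; each circle is a library and the vertical axes differ between genes. The ranges of the cell types overlap in all 5 treatments for each of these genes; *Ubqln2* in ES-astrocytes with C1Q and C5 has 1 library at 176 CPM.

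In the control comparison as a whole, 0 of the 8 members tested were called by edgeR's quasi-likelihood test, where 2.24% of all genes were called (228 of 10199, 58 higher and 170 lower in ES-motor neurons). The calls over all genes fell to 41 with replicate letter as a block. With 1 library left out, they ran from 72 (without ES-motor neuron control B) to 401 (without ES-astrocyte control A). At an unadjusted p under 0.05 there were 0 of the 8 members and 1084 of all genes, and DESeq2 (769 genes called) and limma-voom (464) also called 0 members. The median log2 fold change was 0.09 over the 8 members and -0.20 over all genes tested. Over the 5 treatments it was -0.30 over the 9 members, of which 3 were above 0 and 6 below, and -0.21 over all genes by edgeR. The median over all genes there was 0.63 by DESeq2 and 0.38 by limma-voom. There DESeq2 called 1 member, *Sod1*, and limma-voom 1, *Optn*.

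Without ES-astrocyte control A the log2 fold changes of the other members in the control comparison were 0.59 for *Ubqln2*, 0.35 for *Vcp*, 0.71 for *C9orf72* and 1.14 for *Chmp2b*, and 0 members were called by edgeR.

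**Figure D4:**
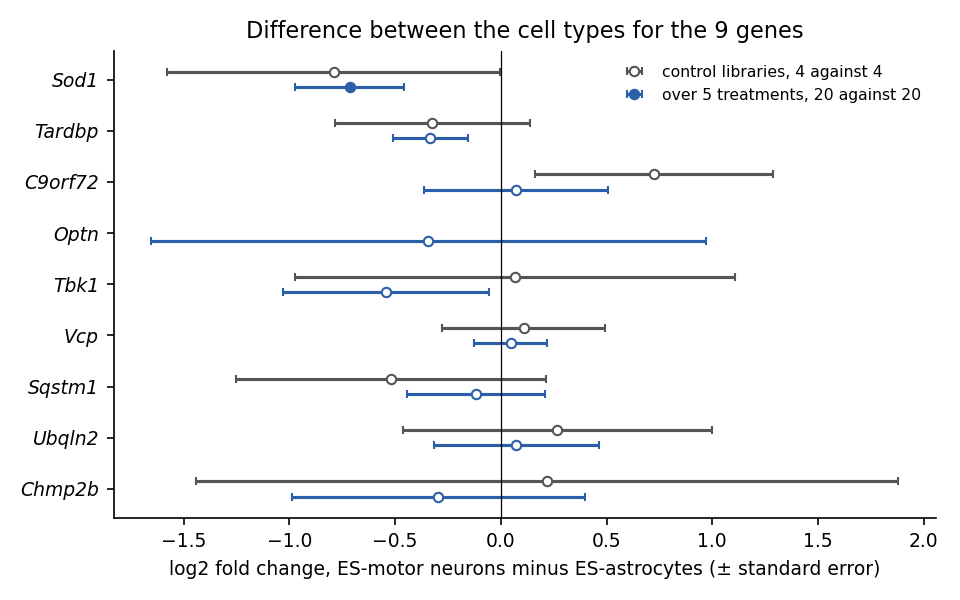
Log2 fold change of the 9 genes between the cell types (ES-motor neurons minus ES-astrocytes) with its SE, from the 8 control libraries and from all 40 libraries with treatment as a term. Only *Sod1* over the 5 treatments, the filled circle at -0.71, was called by edgeR; *Optn* has no value in the control libraries because it did not pass the filter on low counts.

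Genes known to act beside the members were read from lists, given here for the comparison over the 5 treatments; in the control comparison 0 genes of these 10 lists were called by edgeR, where 2.24% of all genes were called. There, 2 of the other ALS genes, 1 VCP cofactor and 1 gene of the KEAP1-NRF2 pathway had an unadjusted p under 0.05 and 0 in the other 7 lists; DESeq2 called *Ccnf* and *Nfe2l2*, and limma-voom 1 gene in each of their lists. Of 25 other ALS genes, 22 were tested, 1 was higher and 3 were lower in ES-motor neurons, where 18.7% of all genes were called (6 at an unadjusted p under 0.05; DESeq2 and limma-voom each called 4). *Kif5a*, a kinesin of axonal transport, had 25.7 ± 28.6 CPM in ES-astrocytes against 60.3 ± 29.2 CPM in ES-motor neurons (SD, n = 20), a log2 fold change of 1.74 (SE 0.40, adjusted p = 0.00102 by edgeR). *Ccnf*, which encodes cyclin F of a ubiquitin ligase that acts in the cell cycle, had 20.0 ± 12.4 CPM in ES-astrocytes against 0.342 ± 1.05 CPM in ES-motor neurons (log2 fold change -5.58, SE 0.83, adjusted p = 7.28e-07 by edgeR). The proliferation genes *Top2a* (-6.94) and *Mki67* (-8.29) were lower in ES-motor neurons too, and their part in the result for *Ccnf* was not tested. *Chchd10*, a mitochondrial protein gene, had a log2 fold change of -1.80 (SE 0.46, adjusted p = 0.00290 by edgeR). *Erbb4*, a neuregulin receptor, had 2.24 ± 2.57 CPM in ES-astrocytes and 0 counts in ES-motor neurons (adjusted p = 0.00243 by edgeR); limma-voom turned its direction (0.50) and neither limma-voom nor DESeq2 called it. The limits for 0 counts in ES-motor neurons lie above 2.24 CPM in many libraries, so this call is weak evidence too, although it was also made without the shallow libraries. The median log2 fold change of the 22 genes was -0.20, against -0.21 over all genes.

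Other partners of the members are given for the same comparison, in which 18.7% of all genes were called. Of 15 cofactors of VCP, all tested, 1 was higher and 1 lower in ES-motor neurons (2 at an unadjusted p under 0.05; DESeq2 called 2 and limma-voom 4). The deubiquitinase gene *Yod1* had 504 ± 263 CPM in ES-astrocytes against 1077 ± 534 CPM in ES-motor neurons (SD, n = 20; log2 fold change 1.08, SE 0.25, adjusted p = 0.00108 by edgeR). The adaptor gene *Ubxn1* had -0.84 (SE 0.21, adjusted p = 0.00261 by edgeR) and was not called without the shallow libraries (-0.65), and *Ube4b* had 0.41 and was not called (SE 0.21, adjusted p = 0.189). Of 13 genes of ESCRT-III and its disassembly, 1 was higher and 0 lower by edgeR (2 at an unadjusted p under 0.05; DESeq2 called 2, *Chmp2a* and *Vta1*, and limma-voom 3), namely the subunit gene *Chmp2a* (0.37, SE 0.13, adjusted p = 0.0367 by edgeR), which was not called in 7 of 16 alternatives, among them either plate alone (0.44 and 0.41). *Vta1* (-0.37, SE 0.14, adjusted p = 0.0536 by edgeR) and *Chmp4c* (0.86, SE 0.58, adjusted p = 0.366) did not pass by edgeR. Median log2 fold changes were -0.10 for the VCP cofactors and 0.03 for ESCRT-III.

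Of 25 genes of autophagy, 24 were tested and 0 were called by edgeR, where 18.7% of all genes were called (1 at an unadjusted p under 0.05). DESeq2 called 1 and limma-voom 2, and edgeR called 1 higher in ES-motor neurons without the shallow libraries. The closest were *Becn1*, a subunit of the kinase complex that starts autophagosomes (-0.57, SE 0.23, adjusted p = 0.0794 by edgeR), *Map1lc3b*, which encodes the LC3 protein bound by p62 and optineurin (0.28, SE 0.14, adjusted p = 0.198), and *Atg5* (-0.39, SE 0.23, adjusted p = 0.294). Of 7 partners of TBK1 only 3 were tested and 0 were called (1 at an unadjusted p under 0.05; 0 by DESeq2 and 1 by limma-voom): *Azi2* (0.60, SE 0.24, adjusted p = 0.0683 by edgeR), *Irf3* (-1.45, SE 0.74, adjusted p = 0.195) and *Tank* (-0.30, SE 0.39, adjusted p = 0.697; its sign turned with limma-voom, to 0.01). Without the shallow libraries edgeR called 1 of these 3 TBK1 partners higher in ES-motor neurons, and *Azi2* was not called in 12 of 16 alternatives. The 2 other ubiquilins *Ubqln4* (0.65, SE 0.40, adjusted p = 0.306 by edgeR) and *Ubqln1* (-0.26, SE 0.29, adjusted p = 0.653) gave 0 calls by edgeR, 0 at an unadjusted p under 0.05, 0 by DESeq2 and 1 by limma-voom. Median log2 fold changes were 0.21 for autophagy, -0.30 for the TBK1 partners and 0.19 for the ubiquilins, against -0.21 over all genes by edgeR. This last median was 0.63 by DESeq2 and 0.38 by limma-voom.

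The antioxidant genes beside *Sod1* were read from a pair of lists. Of 10 genes of the KEAP1-NRF2 pathway, in which p62 takes part by binding KEAP1, 9 were tested and 2 were lower in ES-motor neurons, beside 18.7% of all genes called. There were 4 at an unadjusted p under 0.05, and DESeq2 called 2 (*Nfe2l2* and *Nqo1*) and limma-voom 1. *Nqo1*, a quinone reductase and target of NRF2, had 5.15 ± 5.18 CPM in ES-astrocytes against 0.0475 ± 0.212 CPM in ES-motor neurons (SD, n = 20; log2 fold change -5.97, SE 1.16, adjusted p = 1.01e-04 by edgeR). *Nqo1* was at most 0.950 CPM in ES-motor neurons, where the limits for 0 counts lie above 5.15 CPM in the shallow libraries. *Nfe2l2*, the gene of NRF2 itself, had 29.4 ± 38.1 and 5.65 ± 7.58 CPM (log2 fold change -2.65, SE 0.80, adjusted p = 0.0127 by edgeR), was not called within either plate alone (-2.17 and -2.92) or by limma-voom (-1.33), and *Hmox1* did not pass (-2.77, SE 1.04, adjusted p = 0.0552). Of the 4 other genes of superoxide and peroxide handling, 0 were higher and 1 was lower by edgeR, while DESeq2 and limma-voom called 0: *Sod3*, the extracellular dismutase, had 2.50 ± 5.47 CPM in ES-astrocytes and 0 counts in ES-motor neurons (adjusted p = 0.00613 by edgeR), with the sign turned by limma-voom (1.40). Its median was 0 in ES-astrocytes too, and the limits for 0 counts in ES-motor neurons reach 458 CPM, so the call is weak evidence of a difference, although it was also made without the shallow libraries. The mitochondrial dismutase gene *Sod2* had 164 ± 42.6 and 198 ± 53.4 CPM (log2 fold change 0.30, SE 0.15, adjusted p = 0.165 by edgeR), and was called without the shallow libraries (0.66), while *Cat* did not pass (-0.55, SE 0.33, adjusted p = 0.295). The median log2 fold change was -0.50 for the KEAP1-NRF2 genes and -0.66 for the superoxide genes.

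The stimuli were compared with the control within each cell type to see whether inflammatory treatment of the ES-astrocytes moved the 9 genes. The comparisons of a cell type share its 4 control libraries. In ES-astrocytes, 0 members were called by edgeR with any stimulus, and 0% of all genes were called in each of the 4 comparisons: 0 of 8 members and 0 of 10444 genes with IL-1α and TNF-α, 0 of 9 and 0 of 10865 with C1Q and C5, 0 of 8 and 0 of 10240 with IL-1β and IL-6, and 0 of 8 and 0 of 10794 with TGF-β2. At an unadjusted p under 0.05 there were 0 members in each and 93, 106, 119 and 136 genes in this order. DESeq2 called 21, 37, 60 and 58 genes and 0 members, and limma-voom called 0 genes. The median log2 fold changes over the members and over all genes were -0.07 and -0.08, 0.12 and -0.07, -0.01 and -0.07, and 0.05 and -0.06.

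Among stimulated ES-astrocytes, the members of smallest p were *C9orf72*, *Ubqln2* and *Sqstm1*. With IL-1α and TNF-α, *C9orf72* had 68.6, 47.8, 107 and 6.01 CPM, and with TGF-β2 71.6, 28.9, 91.5 and 42.9 CPM, against 24.1, 36.0, 16.8 and 33.2 CPM in control ES-astrocytes. In each treatment 3 of 4 libraries lay above the highest control value, and 1 overlapped with or fell short of the control range. The log2 fold changes were 1.09 with IL-1α and TNF-α (SE 0.74, unadjusted p = 0.170, adjusted p = 1.000 by the edgeR fit over all genes) and 1.15 with TGF-β2 (SE 0.57, unadjusted p = 0.0703, adjusted p = 1.000 by the edgeR fit). With C1Q and C5, *Ubqln2* had 6.73, 18.99, 33.9 and 176 CPM against 33.2, 30.1, 10.2 and 13.3 CPM in the control. The log2 fold change of 1.5 (SE 0.94, adjusted p = 1.000 by edgeR) rests on replicate D, without which it was -0.09. With IL-1β and IL-6, *Sqstm1* had 47.6, 53.7, 31.2 and 33.8 CPM against 94.2, 47.8, 68.5 and 11.1 CPM in the control (log2 fold change -0.40, SE 0.65, adjusted p = 1.000 by edgeR), and without ES-astrocyte control A the difference was -0.00 (that is -0.00235).

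In ES-motor neurons from stimulated co-cultures, 0 members were called by edgeR as well. These were 0 of 6 members with IL-1α and TNF-α (0% of 4479 genes called), where *Optn*, *Tbk1* and *Chmp2b* did not pass the filter, and 0 of 8 with C1Q and C5 (0% of 7348 genes) and with IL-1β and IL-6 (0% of 8327 genes). With TGF-β2 there were 0 of 7, with 0.0126% of all genes called (1 of 7947), that gene being *Hoxa5* (log2 fold change 3.05, SE 0.44, adjusted p = 0.0103 by edgeR), named after its value was seen. No gene was called there without the shallow libraries, or without any 1 of the ES-motor neuron libraries control C, TGF-β2 A and TGF-β2 D. At an unadjusted p under 0.05 there were 0 members in each and 143, 322, 98 and 221 genes. DESeq2 called 1, 0, 1 and 19 genes and 0 members, and limma-voom called 0 genes. The median log2 fold changes over the members and over all genes were 0.08 and 0.03, -0.22 and -0.06, 0.06 and -0.01, and 0.10 and -0.00. All 4 libraries with IL-1α and TNF-α were shallow, which limits what could be detected there.

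The ES-motor neuron members of smallest p were *Sqstm1*, *C9orf72*, *Ubqln2* and *Sod1*. With IL-1α and TNF-α, *Sqstm1* had 106, 34.5, 83.7 and 43.3 CPM against 19.9, 54.2, 65.3 and 14.8 CPM in control ES-motor neurons, which overlapped (log2 fold change 1.04, SE 0.62, unadjusted p = 0.111, adjusted p = 0.990 by the edgeR fit). With C1Q and C5, *C9orf72* had 0, 11.9, 5.12 and 39.8 CPM against 64.2, 44.3, 34.6 and 37.2 CPM (log2 fold change -1.25, SE 0.66, unadjusted p = 0.0667, adjusted p = 0.997 by the edgeR fit). With 1 library left out it ran from -0.89 (without C1Q and C5 C) to -2.43 (without C1Q and C5 D). The 0 is from the library of 6557 counts, where it allows up to 458 CPM, and of the other 3 libraries 2 lay below the control values and D within them. With IL-1β and IL-6, *Ubqln2* had a log2 fold change of -0.70 (SE 0.74, adjusted p = 1.000 by edgeR), and with TGF-β2 *Sod1* one of 0.46 (SE 0.40, adjusted p = 0.999 by edgeR).

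Whether a stimulus acted differently on the cell types was tested as an interaction in all 40 libraries. For each of the 4 stimuli 0 of 9 members and 0% of 13227 genes were called by edgeR, with 544, 741, 922 and 638 genes at an unadjusted p under 0.05 for IL-1α and TNF-α, C1Q and C5, IL-1β and IL-6, and TGF-β2. DESeq2 called 5, 7, 13 and 5 genes and 0 members and limma-voom 0 genes. *Optn* alone of the members reached an unadjusted p under 0.05, with IL-1β and IL-6 (unadjusted p = 0.0131, adjusted p = 0.458 by the edgeR fit) and with IL-1α and TNF-α (unadjusted p = 0.0273, adjusted p = 1.000 by the edgeR fit). With IL-1β and IL-6 it had 7.60, 22.6, 3.58 and 6.68 CPM in ES-motor neurons, from 120, 2, 18 and 1 counts, against 0, 0.0510, 0 and 0 CPM in control ES-motor neurons. In ES-astrocytes of that treatment it had 0, 6.04, 0.311 and 0 CPM. These ES-motor neuron groups did not overlap, but 2 of the 4 libraries are shallow and hold 1 or 2 counts, and a count of 0 in ES-motor neuron control C allows up to 12.5 CPM. *Optn* did not pass the filter in the comparison of these 8 libraries. With IL-1α and TNF-α it had 1 count in ES-motor neuron A (5.90 CPM) and 0 in B, C and D, all of them shallow. In ES-astrocytes of that treatment it had 11, 1, 0 and 0 counts. The fitted interactions of *Optn* (8.83, SE 3.41, with IL-1β and IL-6, 8.19, SE 3.58, with IL-1α and TNF-α, and 6.59, SE 3.27, with TGF-β2) depend on the prior count, because a group is near 0 counts, and are no bounds. Without the replicates of 1 letter they ran from 6.86 to 12.6, from 2.18 to 9.77 and from 1.14 to 9.84 in this order. With C1Q and C5 the member of smallest p was *Ubqln2* (-1.40, SE 1.21, adjusted p = 1.000 by edgeR), which was 0.18 without the replicates of letter D. Median interactions over the members and over all genes were -0.04 and -0.04, -0.29 and -0.05, -0.08 and 0.12, and 0.12 and 0.08.

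The stimuli were also read through 14 genes known to respond to such factors, of which 5, 3, 3 and 4 were tested in ES-astrocytes with the 4 stimuli in the same order, and 0 were called by edgeR. At an unadjusted p under 0.05 there was 1, *Saa3* with IL-1α and TNF-α, and 0 with the other stimuli, and limma-voom called 0. *Saa3*, an acute-phase protein of reactive glia, had 109, 196, 54.1 and 17.02 CPM with IL-1α and TNF-α, 26.1, 95.8, 15.9 and 0 CPM with IL-1β and IL-6, and 0 counts in the 4 control ES-astrocyte libraries. DESeq2 called it in both (adjusted p = 2.79e-13 and 0.00136), while edgeR gave 0.374 in the former and did not test it in the latter. *C3*, the complement component, was called by DESeq2 with IL-1β and IL-6 (adjusted p = 0.0432), where it had 12.5, 9.26, 14.4 and 0 CPM against 0 counts in the control. It was not particular to that stimulus. ES-astrocytes had 22.9, 0, 0 and 20.1 CPM of *C3* with C1Q and C5 (adjusted p = 0.377 by DESeq2). With IL-1α and TNF-α they had 27.5, 1.32, 0 and 0 CPM. *Smad7*, a target of TGF-β signalling, had 8.57, 8.24, 21.6 and 5.37 CPM with TGF-β2 against 0, 1.08, 2.55 and 44.4 CPM in the control (log2 fold change -0.09, SE 1.66, adjusted p = 1.000 by edgeR), and the groups overlapped. In ES-motor neurons 0, 1, 2 and 2 of the 14 genes were tested, and 0 were called by edgeR, DESeq2 or limma-voom. At an unadjusted p under 0.05 there was 1 of these, *Nfkbia* with TGF-β2 (1.83, SE 0.87, adjusted p = 0.999 by edgeR). Over the 5 treatments, 6 of the 14 were tested between the cell types, with 0 higher and 2 lower in ES-motor neurons by edgeR beside 18.7% of all genes called, *Saa3* (-4.52, SE 1.19, adjusted p = 0.00447) and *C3* (-4.25, SE 1.18, adjusted p = 0.00803). Neither was called by DESeq2, by limma-voom, which turned *C3* to 0.98, or without the shallow libraries, and *Ccl2* was not called (-3.34, SE 1.37, adjusted p = 0.0859 by edgeR).

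The genes whose pattern over the 10 group means was most like that of each member were read from 13227 genes by Pearson's correlation of log2(CPM + 1), as a description over 10 groups that share cell types, treatments and depth. They were *Supt16* (r = 0.964) and *Sirt6* (0.960) for *Sod1*, *Rasl11b* (0.963) and *4933408J17Rik* (0.944) for *Tardbp*, and *Zfp446* (0.973) and *Sidt2* (0.930) for *C9orf72*. For the autophagy genes they were *Nsun5* (0.925) and *Mrps9* (0.923) for *Tbk1*, *Gpr137* (0.917) and *Dkk3* (0.907) for *Optn*, and *Zfp868* (0.948) and *Gps1* (0.942) for *Sqstm1*. For the others they were *Slc25a51* (0.970) and *Strbp* (0.962) for *Vcp*, *Rubcn* (0.930) and *Nox1* (0.905) for *Ubqln2*, and *Zfp574* (0.939) and *Nol4* (0.923) for *Chmp2b*. Without the shallow libraries, which leaves 9 groups, only *Supt16* for *Sod1* was again among the 2 most alike, 1 of 18 genes.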

How the data were processed

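RNA of 40 libraries (2 cell types, 5 treatments, 4 replicates) was measured by sequencing. The authors deposited raw counts for Ensembl genes, from reads mapped with STAR; the sources used here give neither its version nor the counting tool, strand setting, build or annotation. Plate numbers are other values that the authors deposited in a sample sheet. Symbols and coordinates came from GENCODE M21 (GRCm38), promoters from RefSeq. Genes were fitted with edgeR 4.0.16 in R 4.3.3 (TMM, filterByExpr, robust glmQLFit, glmQLFTest) and called where p, adjusted over all genes tested by Benjamini-Hochberg, was at most 0.05. The members and lists were chosen with earlier results of these data known. Named are all members between cell types, the member of smallest p or those called for each stimulus, and from each list the 3 of smallest p and those called. Alternatives were DESeq2 1.42.0 (alpha 0.1), limma-voom with sample quality weights (limma 3.58.1), RLE normalization, no filter, a minimum count of 50, all 40 libraries in 1 fit, an absolute log2 fold change above 1, replicate letter as a block, no shallow libraries and each replicate left out; 3 more (without ES-astrocyte control A, each plate alone) were chosen after seeing the data. Python 3.11.15 (pandas 2.3.3, numpy 2.4.6, scipy 1.17.1, matplotlib 3.10.9) made tables, permutation tests and plots. The fits were tested on simulated data with the same dispersion for all genes and large fold changes. That test does not cover differences as small as that of *Sod1*.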

Additional observations from a re-analysis of the deposited data

Results flagged for a closer look

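In 11 of 90 groups (9 genes in 10 groups of 4 libraries), 1 library lay far from the other 3, by Dixon's ratio of gap to range. The ratio is met by any count where the other 3 libraries are at 0, so no rate of chance is set beside this number. *Sod1* was at 1751 CPM in ES-motor neuron C1Q and C5 A, the library of 6557 counts, against 7832 to 9084 CPM in the others, and *Tbk1* was at 67.4 CPM there, from 1 count, against 0 to 5.57. *Tbk1* was at 57.1 CPM in ES-motor neuron IL-1β and IL-6 C against 0 to 6.84. *Ubqln2* was at 176 CPM in ES-astrocyte C1Q and C5 D against 6.73 to 33.9. In the shallow library ES-motor neuron TGF-β2 A, *Sqstm1* was at 57.9 CPM against 38.5 to 39.9 and *Chmp2b* at 41.3 against 0 to 5.13. *Optn*, with 432 counts in all, was at 6.04 CPM in ES-astrocyte IL-1β and IL-6 B against 0 to 0.311. Its other 4 values stood against 0 in the remaining 3 libraries of their group: 2.86 CPM in ES-astrocyte TGF-β2 A, 0.0510 in ES-motor neuron control B, 5.90 in ES-motor neuron IL-1α and TNF-α A, and 3.42 in ES-motor neuron TGF-β2 D. No interaction of a stimulus with the cell type was called for a member.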

How the results depend on the processing

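Of 199 alternatives for the 14 counts of members called, 189 gave the same count and 10 a lower one, all 10 for the cell types over 5 treatments. That count of 1 became 0 with a minimum absolute log2 fold change of 1, without the shallow libraries, with no filter, with the stricter filter, with plate index 1 alone or plate index 2 alone, and without any 1 letter (0 to 0). It was 1 with DESeq2, RLE normalization, all 40 libraries with 1 mean per group, without ES-astrocyte control A and, for *Optn* instead of *Sod1*, with limma-voom. The labels do not say whether letters pair samples. Deviations of libraries of the same letter were correlated at -0.224 to 0.392 in comparisons of a pair of groups, and this was not computed over 5 treatments. With the replicate block *Sod1* had a log2 fold change of -0.79 (adjusted p = 0.0230 by edgeR; 0.00835 to 0.533 over its alternatives). Of 441 alternatives for 29 fold changes, 402 kept direction and call, 11 lost the call of *Sod1* and 28 turned the direction of a gene not called by edgeR, of which 1 was itself called, *Optn* over 5 treatments with limma-voom. In the control comparison *Chmp2b* ran from -0.44 to 1.14 with 1 library left out, *Tbk1* from -0.32 to 0.54 (and -0.29 without shallow libraries) and *Vcp* from -0.0108 to 0.37. Among the other alternatives *Chmp2b* reached 2.10 in that comparison, and *Ubqln2* reached 0.80 over 5 treatments. Over 5 treatments the ranges without 1 letter were -0.13 to 0.24 for *C9orf72*, -0.87 to 0.0681 for *Chmp2b*, -0.98 to 0.16 for *Optn*, -0.27 to 0.14 for *Sqstm1* and -0.0564 to 0.23 for *Ubqln2*. Turned values were 0.36 for *Chmp2b* and 0.10 for *Sqstm1* with plate index 1 alone, 0.30 for *Optn* and -0.32 for *Ubqln2* with plate index 2 alone, 0.12 for *Optn* and -0.0268 for *Ubqln2* with DESeq2, 2.03 for *Optn* and 0.0555 for *Sqstm1* with limma-voom, and for *Ubqln2* -0.0480 without shallow libraries and -0.0184 with RLE normalization. With 1 library left out, *Ubqln2* with C1Q and C5 ran from -0.0949 to 1.87 in ES-astrocytes and its interaction from -1.98 to 0.18 without 1 letter. *Sqstm1* with IL-1β and IL-6 in ES-astrocytes turned to 0.36 with limma-voom. The cause of these turns was not tested. Calls over all genes moved as well: in the control comparison 228 became 769 with DESeq2, 464 with limma-voom, 434 with all 40 libraries, 81 without shallow libraries and 41 with the block, and over 5 treatments 2472 became 3791 with limma-voom, 1394 with plate index 2 alone and 765 with plate index 1 alone. The median log2 fold change of all genes over 5 treatments was -0.21, 0.38 with limma-voom and 0.63 with DESeq2, so signs of genes of small difference are relative to these. Without shallow libraries, IL-1α and TNF-α in ES-motor neurons and its interaction could not be fitted. Depth limits detection in ES-motor neurons, and *Optn* in both cell types.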
